A study of Mus musculus with 8 samples.

Results

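The first day after plating was examined by setting the 2 arrays of day 1 against the 3 arrays of day 0, which are 5 of the 8 arrays of the study. The arrays were chosen by the day in their labels, with no use of measured values. Of the 611 mouse microRNAs (miRNAs) on the array, 199 were detected on enough arrays to be tested and 412 were not. Day 1 and day 0 samples were primary mouse oligodendrocytes that the labels call immature; the 3 remaining arrays held cells of day 6, called mature. All samples shared a C57BL/6J background and a CNP-Cre genotype, with Cre recombinase driven by the promoter of Cnp, a gene of the oligodendrocyte lineage, and none received a treatment. After being shaken off their parent culture, the cells grew on poly-L-lysine in DMEM medium with B27, 1% horse serum and thyroid hormones. The series text counts day 0 and day 1 as the first and second day of a precursor culture and calls the samples independent. The sources used here do not say whether separate animals or litters were used. The p-values below thus reflect the spread among these samples alone, which may be technical. The comparison asks which miRNAs differ within the immature stage, before the cells are called mature.

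Oligodendrocytes form the myelin of the brain and arise from dividing precursors that stop dividing before they differentiate. A miRNA is a short RNA that guides a silencing complex to messenger RNAs, mainly by pairing of its seed, the bases at positions 2 to 8 from the 5′ end. In this lineage miR-219, miR-338 and miR-138 are known to promote differentiation, while miRNAs of the miR-17 to miR-92a clusters are known to promote division. Thyroid hormone in the medium is known to drive precursors towards differentiation.

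The mature sequences below belong to 2 of the 3 called miRNAs and to uncalled ones whose day 1 and day 0 arrays did not overlap, and they are shown because the results turn on them. They are RefSeq entries on build GRCm38.p6, written 5′ to 3′ with the seed in capitals, and an array name without an arm was read as the arm that bears this name today. The miRNAs miR-706 and miR-494 were called higher on day 1, and the next 6 had the largest differences above 0 among uncalled miRNAs with a sequence, detected on at least 4 of the 5 arrays and with days that did not overlap.
miR-706: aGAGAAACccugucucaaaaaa
miR-494: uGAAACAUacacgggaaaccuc
miR-1187: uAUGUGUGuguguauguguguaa
miR-202-3p: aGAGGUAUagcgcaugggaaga
miR-574-5p: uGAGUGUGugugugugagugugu
miR-671-5p: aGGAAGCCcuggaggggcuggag
miR-1892: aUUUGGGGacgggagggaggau
miR-466i: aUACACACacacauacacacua
On the side of lower values, miR-218, miR-136, miR-410 and miR-425 stood below day 0 on both day 1 arrays, with none of them called.
miR-218: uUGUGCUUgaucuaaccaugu
miR-136: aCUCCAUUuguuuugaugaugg
miR-410: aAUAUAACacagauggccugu
miR-425: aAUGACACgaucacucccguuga
These 12 sequences have 12 different seeds. The entry of miR-494 lies on chromosome 12 at 109715367 to 109715388 on the plus strand, that of miR-706 on chromosome 6 at 120034290 to 120034311 on the minus strand. The third called miRNA, miR-714, is named only, as is miR-709, because the RefSeq entries used here hold neither. The same holds for miR-712, miR-720 and miR-689, which come up below.

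Values are log2 signals, made from background-subtracted intensities after each array was scaled to a common level, with a floor at 4.20 below which no level was read. A miRNA was called when its p from the limma model, adjusted by Benjamini-Hochberg over all 199 miRNAs, was under 0.05. One array stood apart before any comparison. Day 0 replicate 1 detected 61 mouse miRNAs, against 202 and 150 on day 1 and 187 and 218 on the other day 0 arrays. The spread of its negative control spots (scaled median absolute deviation) was 30.2, against 2.54 to 3.88 on the other 7 arrays. Its lowest detected signal was 7.65 on the log2 scale, so 55 of the 199 tested miRNAs were detected there, and differences that moved by more than 0.5 without it are given both ways. Across the 199 miRNAs the 2 day 1 arrays correlated at r = 0.948, day 1 with day 0 arrays at 0.859 to 0.968, and day 0 arrays with each other at 0.845 to 0.949. The correlations between the days spanned a range like that within day 0. Pairs with day 0 replicate 1 set the low end of both ranges. Without that array the remaining day 0 pair stood at 0.949 and pairs between the days at 0.891 to 0.968. All are across miRNAs, which are not independent replicates.

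The model called 3 of 199 miRNAs (1.51%) between day 1 and day 0. All 3 had higher levels on day 1 and none was called lower (0%). The called miRNAs were miR-714, miR-706 and miR-494. The same 3 were called without day 0 replicate 1. At an unadjusted p under 0.05, 14 miRNAs were higher (7.04%) and 2 lower (1.01%). Differences were above 0 for 87 of the 199 (43.7%). The median log2 difference over all tested miRNAs was -0.06, its quartiles were -0.30 and 0.25, and 143 of 199 differences lay within 0.5 of 0. Only 5 differences exceeded 1 and 3 lay below -1. With a median standard error of 0.382, a single miRNA at that error would have needed a log2 difference of 2.35 to be called alone, so smaller differences were mostly not detectable with 2 arrays against 3.

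**Figure D1:**
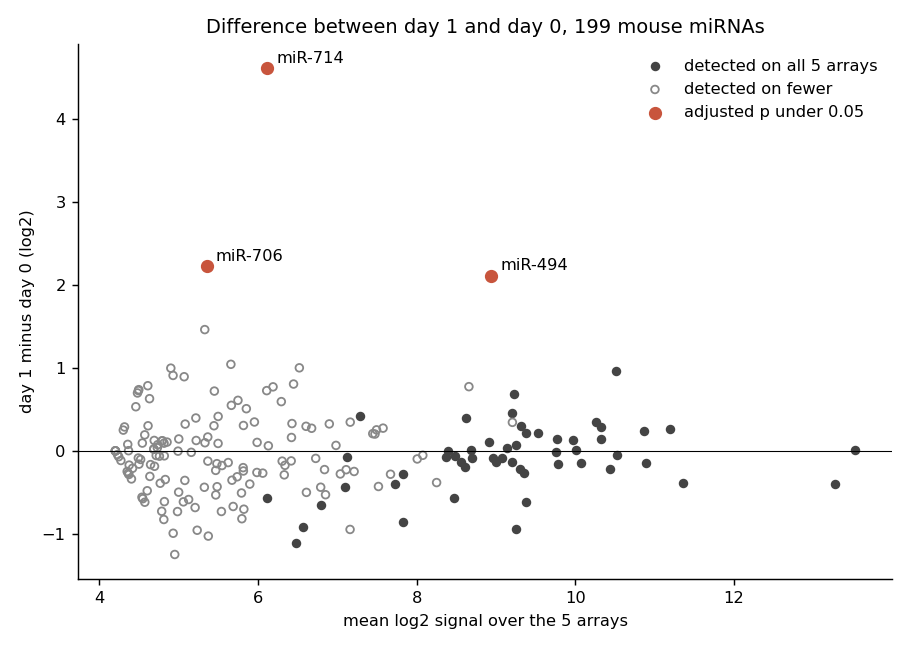
Log2 difference between day 1 and day 0 (vertical axis) against the mean log2 signal over the 5 arrays (horizontal axis) for the 199 tested mouse miRNAs, 1 point each. Red points mark the 3 called miRNAs, filled points those detected on all 5 arrays and open points the rest; 143 of 199 points lie within 0.5 of 0 and the called ones stand above the others.

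MiR-714 had the largest difference. Its log2 signals were 8.16 and 9.61 on day 1, against 4.20, 4.20 and 4.43 on day 0. The groups were far apart, with day 0 values at or just above the floor and a wide gap between the 2 day 1 arrays. In deposited intensities, before scaling, its brightest probe read 332 and 646 on day 1, against 5.19, 22.0 and 30.8 on day 0. The log2 difference was 4.60 ± 0.41 (SE; limma adjusted p = 0.000593), or 24.3-fold, a fold that depends on the floor because 2 day 0 arrays lay at it; its brightest probe was well above background on both day 1 arrays and on 2 of 3 day 0 arrays. The array carries 4 probes for miR-714, and their differences were 4.60, 4.01, 2.11 and 0.37. All 4 were above 0, and the dimmer probes gave smaller differences, with every day 0 value of those 3 at the floor.

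MiR-706 was the most even of the called miRNAs. It read 6.67 and 6.70 on day 1, against 4.37, 4.59 and 4.43 on day 0. Both day 1 arrays lay about as far above all day 0 arrays, and the spread within each day was small. All day 0 values were close above the floor, and miR-706 was detected on 2 of the 3 day 0 arrays. The log2 difference was 2.22 ± 0.24 (SE, limma adjusted p = 0.00143), 4.66-fold. With the floor doubled it was 1.48 ± 0.10 (SE) and called (limma adjusted p = 0.00226), but all day 0 values then lay at the floor. That setting removes the day 0 spread, so it cannot show how firm the call is. In deposited intensities the brightest probe read 118 and 86.4 on day 1, against 19.1, 30.6 and 31.0 on day 0. This difference rests on that probe, since of its 3 other probes 1 differed by 0.52 and both remaining ones lay at the floor on all 5 arrays. With normexp background correction or with the mean of all 4 probes the log2 difference of miR-706 was 0.91 and 0.69 and was not called (limma adjusted p = 0.829 and 0.144).

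MiR-494 was the only called miRNA that was detected on all 5 arrays. It is encoded in the Dlk1-Dio3 region, an imprinted locus with large miRNA clusters that are read from the maternal chromosome. Its signals were 9.98 and 10.43 on day 1, against 7.95, 8.20 and 8.15 on day 0. The days did not overlap, and the 3 day 0 arrays agreed within a narrow range. The log2 difference was 2.11 ± 0.28 (SE; limma adjusted p = 0.00396), 4.31-fold, and its second probe gave 1.82. Intensities as deposited were 1178 and 1143 on day 1, against 227, 373 and 406 on day 0. The miR-494 call was lost under 4 of 25 other settings, with log2 differences between 1.83 and 2.74 throughout: scaling over all probes (adjusted p = 0.151), no scaling (0.0716), the replicate number as a block (0.0579), and leaving out day 1 replicate 2 (0.0806).

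**Figure D2:**
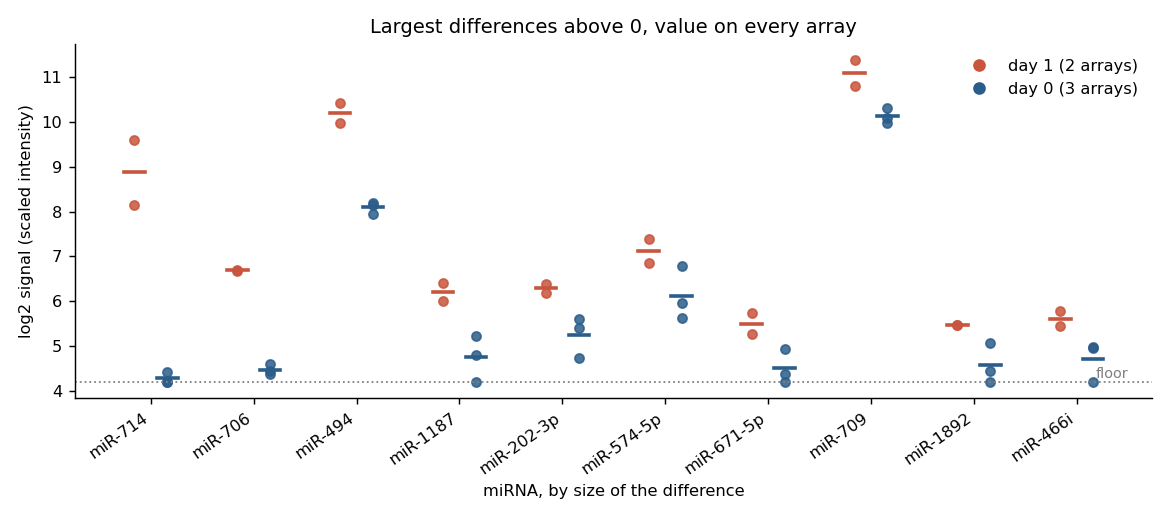
Log2 signal (vertical axis) of the 10 miRNAs with the largest differences above 0 among those detected on at least 4 of the 5 arrays, with the 2 day 1 arrays in red left of the 3 day 0 arrays in blue; bars are means and the dotted line is the floor at 4.20. In all 10 both red points lie above every blue point, by the rule that chose them; miR-714, miR-706 and miR-494 are the 3 called.

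The rule that named further miRNAs took the largest differences with groups that do not overlap, so the separation seen in them is a description. In all, both day 1 arrays lay above all day 0 arrays for 20 of 199 miRNAs (10.1%) and below them for 6 (3.02%). MiR-1187 came next after the called ones. It read 6.00 and 6.42 on day 1, against 4.20, 5.23 and 4.81 on day 0, a log2 difference of 1.46 ± 0.35 (SE; limma adjusted p = 0.139, and 0.110 without day 0 replicate 1). Its second probe gave 1.34. With the floor doubled its difference was smaller, 0.99 ± 0.12 (SE), yet it was called (limma adjusted p = 0.0122). That setting raises the low day 0 values to 1 level and so narrows their spread, which means this call is no added support.

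MiR-709 was among the brightest miRNAs that differed. It read 10.80 and 11.39 on day 1, against 10.09, 10.32 and 9.99 on day 0, a log2 difference of 0.96 ± 0.29 (SE; limma adjusted p = 0.371). Both day 1 arrays were above every day 0 array, and its second probe differed by 1.14. MiR-690 behaved alike at a lower level, with 9.54 and 9.75 on day 1 against 8.75, 9.21 and 8.91 on day 0. In deposited intensities, before scaling, the days of miR-690 overlapped, with 865 and 711 on day 1 against 396, 749 and 687 on day 0. The log2 difference of miR-690, 0.69 after scaling, was not called (limma adjusted p = 0.410).

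MiR-574-5p read 6.86 and 7.38 on day 1, against 6.78, 5.97 and 5.62 on day 0. The highest day 0 value came from replicate 1, and the log2 difference was 1.00 with that array and 1.38 without it (limma adjusted p = 0.410 and 0.103). MiR-202-3p read 6.18 and 6.39 on day 1, against 4.72, 5.61 and 5.39 on day 0. Here replicate 1 of day 0 was the lowest array, and the log2 difference was 1.04 with it and 0.74 without it (limma adjusted p = 0.378 and 0.340). The same array thus raised the day 0 mean of one miRNA and lowered that of another. MiR-671-5p, miR-1892 and miR-466i differed by 1.00, 0.91 and 0.89, each with at least 1 day 0 array at the floor and none called. MiR-1895 differed by 0.80 and miR-99b, a relative of miR-100, by 0.61.

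Fewer miRNAs had both day 1 arrays below all day 0 arrays, although 108 of the 199 differences were below 0. MiR-218, which is encoded within the Slit genes and abundant in neurons, read 4.98 and 4.54 on day 1, against 6.29, 5.19 and 5.87 on day 0. Both day 1 arrays were below all day 0 arrays, but it was detected on 3 of the 5 arrays. Its log2 difference of -1.03 ± 0.35 (SE) was not called (limma adjusted p = 0.410), and it was -0.72 without day 0 replicate 1. MiR-136, of the Dlk1-Dio3 region, read 4.43 and 4.20 on day 1, against 4.95, 5.31 and 5.17 on day 0, a difference of -0.83 (limma adjusted p = 0.410). MiR-410, of the same region, differed by -0.67, with 5.13 and 5.44 on day 1 against 6.22, 5.55 and 6.10 on day 0. MiR-425 differed by -0.36. MiR-21, a miRNA abundant in most cultured cells, read 13.02 and 13.04 on day 1, against 14.01, 13.23 and 13.04 on day 0. Its difference of -0.40 became -0.05 without day 0 replicate 1, so it rested on that array.

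The miRNAs that are known to promote oligodendrocyte differentiation were present but did not separate the days. Of 7 on the array all 7 were tested, none was called, and 3 of 7 were above 0, with a median log2 difference of -0.02 against -0.06 for all tested. Without day 0 replicate 1 that median was -0.62, again with 3 of 7 above 0. MiR-338-3p read 11.16 and 7.66 on day 1, against 7.04, 11.53 and 8.64 on day 0. MiR-219 read 6.72 and 4.20 on day 1, against 4.20, 8.14 and 5.10 on day 0. MiR-138 read 6.83 and 4.27 on day 1, against 4.20, 7.64 and 5.75 on day 0. For all 3 miRNAs the same 2 arrays were high, day 1 replicate 1 and day 0 replicate 2, and the days overlapped widely.

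The log2 differences of miR-338-3p, miR-219 and miR-138 were 0.34 ± 1.38, -0.35 ± 1.16 and -0.31 ± 1.03 (SE). For miR-338-3p the 95% confidence interval ran from -2.82 to 3.51, so neither a rise nor a fall of several fold would have been detected. Without day 0 replicate 1 the 3 differences were -0.62, -1.16 and -1.09. MiR-338-5p, miR-23a, miR-23b and miR-32 differed by 0.08, 0.14, -0.01 and -0.39. The summed scaled intensity of the 4 oligodendrocyte markers (miR-219, both arms of miR-338, and miR-138) was 2536 and 243 on day 1, against 148, 3468 and 495 on day 0. Of the 4 markers, 4 and 1 were detected on the day 1 arrays, against 0, 4 and 3 on the day 0 arrays. Most or all of the markers were thus detected on 3 of the 5 arrays, while on day 1 replicate 2 and day 0 replicate 1 they were mostly or wholly undetected. Only on day 0 replicate 2 did their sum exceed those of both the astrocyte and the microglia markers given below. On day 1 replicate 1 it lay below the astrocyte sum alone, and on the remaining arrays, day 0 replicate 3 among them, below both. These sums add signals of different probes over lists of different size, so they do not give the share of each cell type. The astrocyte markers are members of the miR-26 and miR-29 families, which are also given below as families. Fewer cells of a type and less of a miRNA per cell cannot be told apart in such samples. Whether differences in these markers between samples bear on the 3 calls was not tested.

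**Figure D3:**
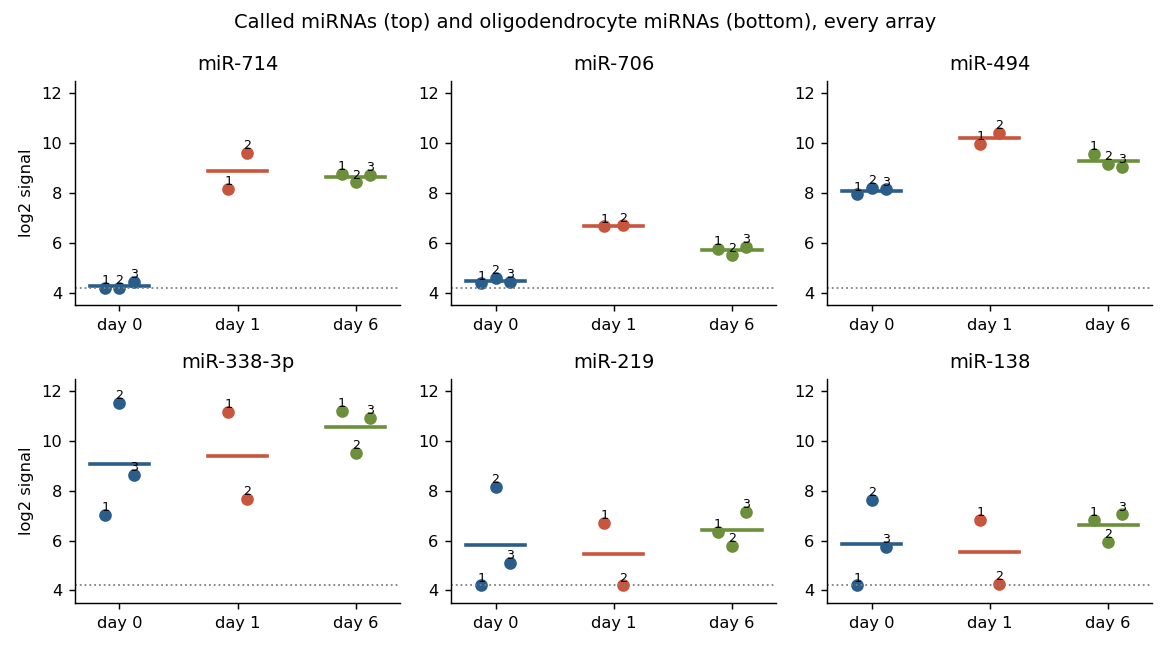
Log2 signal (vertical axis) on every array of day 0, day 1 and day 6, with replicate numbers beside the points, means as bars and the floor at 4.20 as a dotted line, for the 3 called miRNAs in the top panels and 3 oligodendrocyte miRNAs in the bottom panels. In the top panels day 1 lies above day 0 with no overlap; in the bottom panels the arrays of 1 day spread widely, from 7.04 to 11.53 for miR-338-3p on day 0.

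On day 6 the means of the 3 called miRNAs were also above those of day 0. MiR-714 averaged 4.28 ± 0.13 on day 0 (SD, n = 3), 8.88 ± 1.02 on day 1 (SD, n = 2) and 8.64 ± 0.19 on day 6 (SD, n = 3). MiR-706 averaged 4.47, 6.69 and 5.70 on the 3 days in turn, and miR-494 averaged 8.10, 10.21 and 9.27. Day 6 against day 0 gave log2 differences of 4.37, 1.23 and 1.17 for miR-714, miR-706 and miR-494 (limma adjusted p = 0.000378, 0.0290 and 0.0363). It shares the day 0 arrays on which these miRNAs were already picked as lower, so these values are not separate support. Other miRNAs fell under the same threshold there, such as miR-139-3p at 1.86 (limma adjusted p = 0.0338). Day 6 against day 1 gave -0.24, -0.99 and -0.93, none of them called (limma adjusted p = 0.965, 0.151 and 0.247). Over all miRNAs, day 6 against day 1 gave no call in the limma model (0%), with 17 at an unadjusted p under 0.05 (8.54%); other settings gave up to 9 calls. Among uncalled miRNAs, miR-690 was higher on day 1 than on both other days, with means of 8.95, 9.64 and 8.51 on days 0, 1 and 6.

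The miRNAs numbered miR-680 to miR-721 held both called members outside the Dlk1-Dio3 region. Of 40 on the array 13 were tested, 2 were called, both higher on day 1, against 1.51% of all tested. Above 0 were 8 of 13, against 43.7% of all, with a median log2 difference of 0.25 against -0.06. Both day 1 arrays lay above all day 0 arrays for 5 of the 13, against 10.1% of all tested: miR-714, miR-706, miR-709, miR-690 and miR-712. MiR-712 read 4.52 and 5.04 on day 1, against 4.20, 4.20 and 4.34 on day 0. MiR-720, the brightest of the group, read 13.49 and 13.58 on day 1, against 14.13, 13.28 and 13.17 on day 0, a difference of 0.01. MiR-711 and miR-689 differed by 0.73 and 0.25, miR-710 lay at the floor on all 5 arrays, and miR-680, miR-702, miR-705 and miR-721 differed by -0.18, -0.61, -0.58 and -0.59. Without day 0 replicate 1, miR-702, miR-705 and miR-721 stood at 0.30, 0.17 and -1.11, the first 2 with their sign turned. On the 5 arrays, 27 of the 40 members were detected nowhere.

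Of 57 members of the Dlk1-Dio3 clusters on the array 10 were tested and 1, miR-494, was called, against 1.51% of all tested. Above 0 were 3 of 10, against 43.7% of all, with a median of -0.31 against -0.06. MiR-370, the second tested member above day 0 on both arrays, read 4.84 and 5.33 on day 1, against 4.20, 4.20 and 4.49 on day 0, a difference of 0.78 (limma adjusted p = 0.410). The other 8 members differed by 0.13 (miR-379) down to -0.83 (miR-136), and miR-379 stood at -0.31 without day 0 replicate 1. On the array, 35 of the 57 members were detected on none of the 5 arrays.

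The families miR-297, miR-466, miR-467 and miR-669, many of which lie in an intron of Sfmbt2 in rodents, had the highest median of the lists, 0.57 over 6 tested of 35 on the array, with none called. Its members miR-466i, miR-467f, miR-466f-3p and miR-669f differed by 0.89, 0.73, 0.72 and 0.41, and miR-467b and miR-669c by -0.09 and -0.19. Without day 0 replicate 1, miR-467f, miR-466f-3p and miR-669c stood at 1.34, 1.37 and 0.43, the last with its sign turned, and none was called. RefSeq places miR-466i on chromosome 13 and miR-467f on chromosome 11, so these 2 entries are not in the Sfmbt2 intron.

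The let-7 family, known to rise as many cell types mature, differed little and evenly. All 9 members were tested, none was called, and 8 of 9 were above 0, with a median of 0.24 and a range of -0.13 (let-7i) to 0.32 (miR-98). They share the seed GAGGUAG. Without scaling 3 of 9 were above 0, so the direction depends on the scaling, while the median relative to that of all tested was 0.30 with scaling and 0.26 without. Among the brightest, let-7f read 11.22 and 11.47 on day 1, against 11.00, 11.28 and 10.99 on day 0, and its days overlapped.

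Of the miR-17 to miR-92a family, which gives the series its title, 10 of 12 members on the array were tested and none was called. The median log2 difference was 0.17, with 8 of 10 above 0, but it was -0.06 with 2 of 10 above 0 once day 0 replicate 1 was left out. Relative to the median of all tested it was 0.23 with that array and close to 0 without it. Removing the scaling lowered the family with all other miRNAs and left the relative value at 0.19. The values of miR-17 were 6.82 and 6.48 on day 1, against 4.78, 6.69 and 6.70 on day 0, with replicate 1 the low one; its difference was 0.59 with that array and 0.01 without it. MiR-92a read 9.42 and 9.53 on day 1, against 8.76, 9.18 and 9.11 on day 0, a difference of 0.46 (limma adjusted p = 0.938), and it was the only member whose days did not overlap. MiR-18a differed by 0.27, and by -0.35 without day 0 replicate 1, with its sign turned. The other members lay between -0.13 (miR-106b) and 0.59 (miR-17).

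The miR-34 and miR-449 family, of which miR-34a is a known p53 target, had the lowest median of the lists, -0.84. Of 7 on the array 4 were tested, none was called and none was above 0, also under each of the 3 other scalings and without day 0 replicate 1. MiR-34a read 7.69 and 6.94 on day 1, against 8.73, 8.21 and 7.60 on day 0, a difference of -0.86 ± 0.40 (SE; limma adjusted p = 0.741), and of -0.53 without day 0 replicate 1. MiR-34c read 5.11 and 5.51 on day 1, against 5.55, 5.63 and 7.19 on day 0, a difference of -0.82 (limma adjusted p = 0.938). Only miR-34c had days that did not overlap, by a margin far below the spread within day 0. MiR-34b-5p and miR-449a differed by -0.73 and -0.95.

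The miRNAs reported in precursors gave a median of -0.38 over 7 tested, 2 above 0 and none called. MiR-7b, miR-199a-5p, miR-7a and miR-9 differed by -0.96, -0.73, -0.65 and -0.38, and miR-221 and miR-222 by 0.39 and 0.30. Without day 0 replicate 1, miR-199a-5p stood at 0.10, with its sign turned, and miR-221 and miR-222 at 0.99 and 0.91, none of them called. For miR-7a and miR-7b the difference was -0.17 and -0.38 without day 0 replicate 1, which read 7.91 and 6.66, the highest of the 5 arrays in both. Other families were close to the median of all tested. Medians were -0.23 for miR-30 (5 tested, none above 0), -0.23 for miR-181 (4 tested, 1 above 0), -0.28 for miR-29 (3 tested, none above 0), -0.10 for miR-15 and miR-16 (6 tested, 1 above 0), -0.08 for miR-26 and miR-101 (4 tested, 1 above 0), 0.02 for the miR-23, miR-27 and miR-24 clusters (5 tested, 3 above 0) and -0.11 for miR-99, miR-100 and miR-125 (6 tested, 2 above 0). None of their members was called. The smallest p among them was that of miR-99b, at 0.61 (limma adjusted p = 0.458). Other members named by the rule were miR-30a at -0.43, miR-181d at -0.92, miR-29b at -0.57, miR-322 at -0.28, miR-101b at 0.33 and miR-27b at -0.22. Without day 0 replicate 1, miR-181d stood at -0.29 and miR-101b at -0.44, the second with its sign turned. Scaling over all probes turned the medians of the miR-30, miR-29, miR-181, miR-15 and miR-26 groups and of miR-99 to miR-125 above 0, and moved the median of all tested to 0.38. Star strands, the partner strands of a duplex, had 15 tested of 115 on the array, a median of -0.17 and none called.

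MiRNAs that signals or stress are known to induce included no call among 8 tested, and 3 of 8 were above 0. MiR-146a and miR-155, both NF-kappaB targets, differed by 0.77 and 0.70, miR-212 and miR-132, both CREB targets, by 0.35 and -0.06, and miR-210, induced by hypoxia, by -0.43. MiR-155 read 4.55 and 5.25 on day 1, against 4.20 on all 3 day 0 arrays, so its difference is set by the floor. The median of the 8 was -0.11, and 0.34 without day 0 replicate 1.

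**Figure D4:**
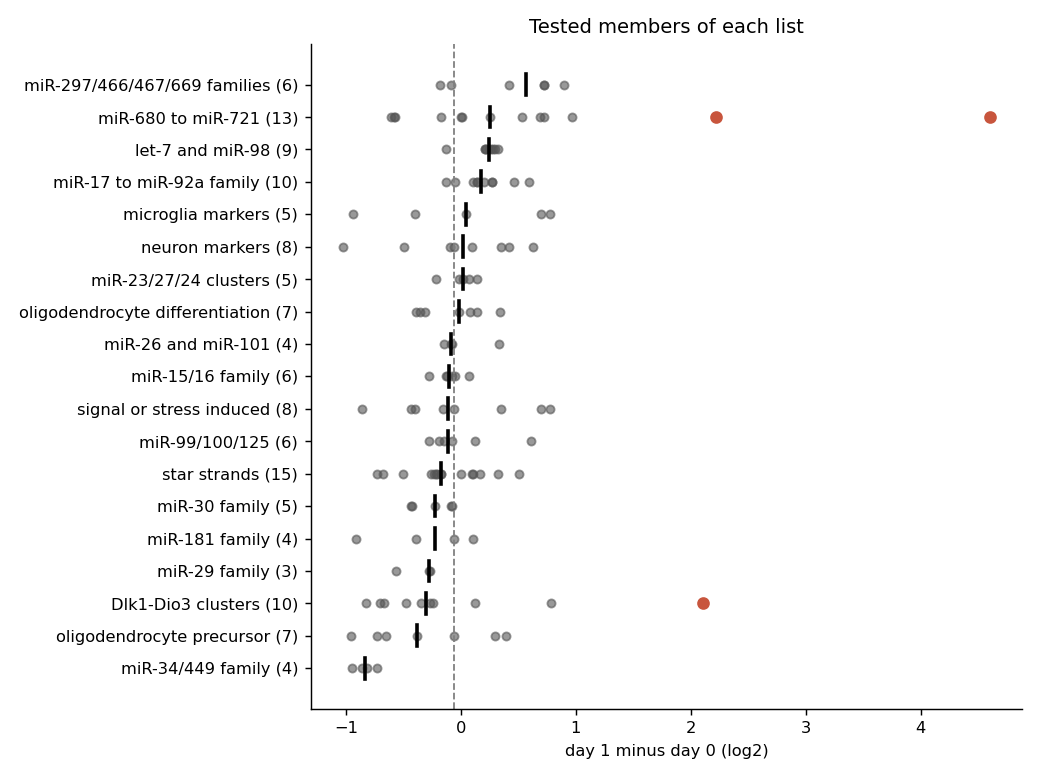
Log2 difference between day 1 and day 0 (horizontal axis) for the tested members of each list of miRNAs, 1 list per line with the number tested in brackets, ordered by the median, which is a black bar. The dashed line is the median of all 199 tested miRNAs, -0.06, and red points are the 3 called miRNAs; lists other than miR-680 to miR-721 and Dlk1-Dio3 hold no called member.

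Markers of other cell types were followed because a culture shaken off a mixed glial layer can hold them. The summed scaled intensity of the 5 astrocyte markers, of which all were tested and none called, was 2739 and 2133 on day 1, against 2726, 3137 and 2741 on day 0. That of the 6 microglia and leukocyte markers was 1772 and 1574 on day 1, against 1520, 2678 and 1415 on day 0. MiR-142-3p, a defining miRNA of blood-derived cells, read 9.34 and 8.03 on day 1, against 9.41, 10.38 and 9.09 on day 0, so these cultures held it on both days. Its difference of -0.94 was not called (limma adjusted p = 0.878), and miR-223, miR-142-5p, miR-146a and miR-155 differed by 0.04, -0.40, 0.77 and 0.70. Of the 5 tested markers of this group 3 were above 0 and none was called. Sums of the 9 neuron markers were 729 and 817 on day 1, against 725, 736 and 825 on day 0. Of these, 8 were tested with 4 above 0; miR-129-5p differed by 0.63. The 5 fibroblast and mural markers summed to 124 and 91.5 on day 1, against 202, 98.5 and 79.9 on day 0. Of the 7 epithelium and choroid plexus markers 1 was tested, miR-204, which differed by -0.57, and by 0.39 without day 0 replicate 1. None of the 2 endothelial, 3 erythroid and 4 muscle markers was detected on any of the 5 arrays, and the same held for the 3 members of the miR-183 cluster. Of the 11 members of the miR-290 to miR-295 stem cell cluster 1 was tested, miR-290-5p, at the floor on both day 1 arrays. The part of other cells in the 3 calls was not tested.

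Many of the miRNAs that stood above day 0 have mature sequences rich in G. RefSeq held a mature sequence for 166 of the 199 tested miRNAs (83.4%). The share of G had a median of 40.9% in the 17 of them with both day 1 arrays above all day 0 arrays, 24.4% over all 166, and 19.0% in the 5 below. A run GGG, searched on the mature strand alone, occurred in 9 of the 17, in none of the 5, and in 46 of 166 (27.7%), against 30.6% of the 1674 mouse mature sequences in the table. Both called miRNAs with a sequence lie below that median of all, miR-706 with 13.6% and miR-494 with 18.2%. Over the 166 miRNAs the share of G and the log2 difference correlated weakly, with Pearson r = 0.19 and Spearman rho = 0.24, over values that share the same 5 arrays. For G and C together they were 0.09 and 0.11.

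The repeat seen in miR-1187 and miR-574-5p above, GUGUGU or UGUGUG, occurred on the mature strand of 3 of the 166 sequences (1.81%), against 1.91% of all in the table. The third was let-7b, which differed by 0.22, and the 3 had a median difference of 1.00. Repeats of A and C, as in miR-466i, occurred in 4 of 166, of which 2 were above 0, with a median of 0.31. Among groups with a shared seed, the lowest median was -0.86 for GGCAGUG of miR-34a, miR-34b-5p and miR-449a, with none of 3 above 0. GGAAGAC of miR-7a and miR-7b gave -0.80 with none of 2 above 0. Both of these differences were smaller without day 0 replicate 1, as given above. AGUGCAA of miR-130a, miR-130b, miR-301a and miR-721 gave -0.48 with none of 4. Let-7 had the median given above, and AAAGUGC of miR-17 and its relatives gave 0.10 over 5 members. None of them held a called miRNA.

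**Figure D5:**
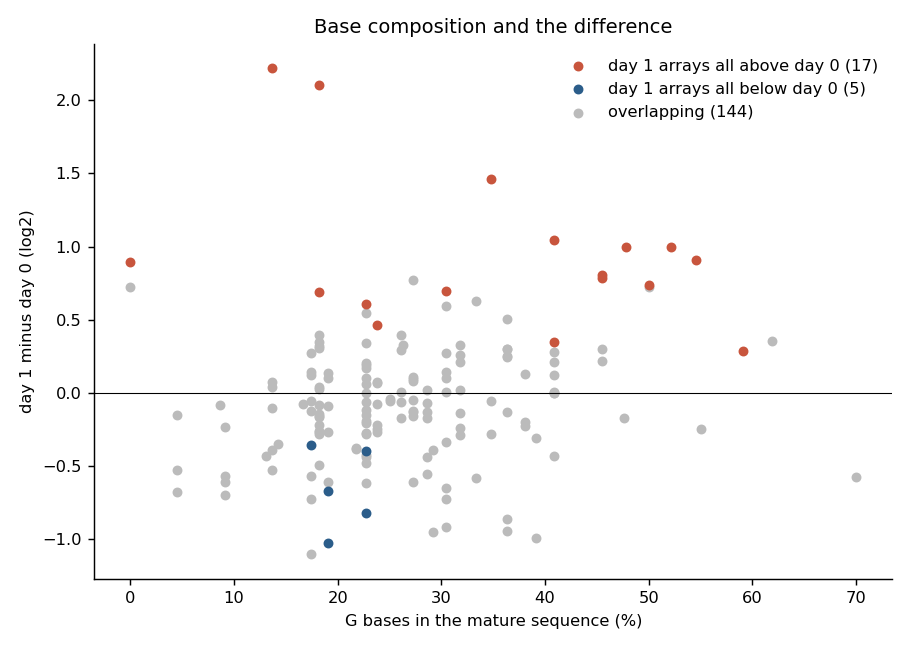
Log2 difference between day 1 and day 0 (vertical axis) against the percentage of G in the mature sequence (horizontal axis) for the 166 tested miRNAs with a RefSeq sequence. Red points (17) had both day 1 arrays above all day 0 arrays, blue points (5) had both below, grey points (144) overlapped; red points have a median of 40.9% G, but miR-706 and miR-494, the 2 highest, lie at 13.6% and 18.2%.

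Probes of 1 miRNA mostly gave the same direction. Among the tested miRNAs, 112 had at least 2 probes detected on 4 or more of the 5 arrays, and for 107 of them all such probes were on the same side of 0.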

How the data were processed

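The authors hybridised Cy3-labelled total RNA, 1 sample per Agilent array, per the labels' protocols. The deposited values are linear intensities with the background subtracted, from Agilent Feature Extraction 9.5, per the file headers, not scaled between arrays; the submitters' processing notes name the same tool. The submitters' table of values holds the same intensities (largest difference 0), so its scale and direction are known and it is not centred; the medians of its columns over all spots ran from -7.3 to 3.03. All arrays lay on 1 slide with 1 scan date. Of 13715 spots, 13000 were not controls and none was saturated. Outlier spots were left out, and spots were averaged into 1857 probes, detected where a share of at least 0.5 of their spots was well above background. Signals were scaled by the 75th percentile of the 91 probes detected on all 8 arrays, raised to a floor (5th percentile of detected values, 18.4 or log2 4.20) and turned into log2 values; the deposited intensities are quoted where so named. A miRNA took its brightest probe and was tested if detected on at least 3 of the 8 arrays.

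A limma model (R 4.3, limma 3.58, version 1.17 of the data.table package) with 1 mean per day was fitted to all 8 arrays, so that day 6 helps to estimate the spread, with two-sided tests and Benjamini-Hochberg adjustment over the 199 miRNAs. The model was also run on simulated independent normal values with the same spread for every miRNA and array. That run held no floor and no noisy array, so it does not cover these features of the data. Python 3.11 read the sequences and, with matplotlib 3.10, drew the figures. Replicate numbers of the labels were not used as pairs in this model, and whether they pair the samples could not be told. Named miRNAs were the calls, the 10 largest differences in each direction with detection on at least 4 of the 5 arrays and days that do not overlap (4 qualified below 0), all tested members of 4 lists (miR-17 to miR-92a, oligodendrocyte differentiation, let-7, miR-680 to miR-721) and the 2 smallest p of each other list. MiR-136, miR-1895 and some family members were named after their values were seen. The members, lists, the rule and the other settings were chosen with earlier results of these data known. The other settings concerned scaling, background, probe summary, floor, detection filter, outlier spots, variance moderation, arrays in the fit, array weights, replicate block, slide row and leaving out each array. The number of arrays limits the precision.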

Additional observations from a re-analysis of the deposited data

Results flagged for a closer look

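The array also carries 39 miRNAs of mouse viruses, which enter no comparison. Of these, 4 were detected on 4 of the 5 arrays (both of day 1 and 2 of day 0), and 35 on none. Mean log2 signals were 5.05 on day 1 and 5.42 on day 0 for mcmv-miR-M23-1-3p, 4.96 and 4.51 for mcmv-miR-M23-1-5p, 5.74 and 5.55 for mcmv-miR-m88-1, and 4.76 and 4.68 for mghv-miR-M1-2, in the same order of days. The floor is 4.20 on this scale. The source of these signals was not tested.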

How the results depend on the processing

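The day 1 against day 0 comparison was repeated under 25 other settings. Counts of calls stayed at 2 to 4, all higher on day 1, except for 1 call (miR-494) when only the 54 miRNAs detected on all 5 arrays were tested, which leaves miR-714 and miR-706 out. Leaving out each array in turn gave 2 to 3 calls. MiR-714 was called in 24 of 24 settings that tested it (largest adjusted p 0.0326, with the 5 arrays of day 0 and day 1 alone), miR-706 in 22 of 24 and miR-494 in 21 of 25. With the replicate number as a block there were 2 calls. The deviations of same-numbered day 0 and day 1 samples correlated at -0.38 and -0.71. Those of day 1 and day 6 correlated at 0.16 and 0.25, and those of day 0 and day 6 at -0.07, -0.39 and 0.32. The deviations of the 2 day 1 arrays mirror each other, so such values cannot tell whether the numbers pair the samples. The slide row as a term gave 3 calls. Day 6 against day 1 gave 0 calls in the model used here, 3 with scaling to control probes (all higher on day 6), 3 with the floor doubled (all lower), 1 with detection on all 5 arrays and 9 with array weights; leaving out each array in turn gave 0 calls every time. Array weights gave day 0 replicate 1 a weight of 0.185, the lowest. The median log2 difference of all tested miRNAs was -0.06, and 0.38, -0.29 and -0.13 with scaling over all probes, none, and to control probes; 87 miRNAs were above 0, against 152, 44 and 74. The share above 0 therefore depends on the scaling, and none of the calls changed direction. Signal over background limited day 0 replicate 1, and 74 of the 199 miRNAs lay at the floor on at least 1 of the 5 arrays.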
